A study of Mus musculus with 14 samples.

Results

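Lin28a-RIP was set against the RNA level of the same cells to see which transcripts the antibody recovered more or less than their abundance would give, and which abundant transcripts had no Lin28a-RIP peak. The ratio rests on Lin28a+ muscle stem cells (MuSCs), with 4 of the 14 libraries of the study: 2 Lin28a-RIP libraries and 2 input libraries. The peak lists of Igf2bp3-RIP and m6A-RIP of the study are used only for whether, and with how many peaks, a gene is listed there. Counts in Lin28a+ cells were not used for this, so a listed peak need not be one of these cells. Both groups were labelled Lin28a positive, from skeletal muscle, and were cultured on Matrigel in medium with serum; the input was untreated and the other group was labelled Lin28a-RIP. The cells had been sorted from Lin28a-CreERT2; LSL-tdTomato mice, so tdTomato marks cells in which a Cre driven from Lin28a was active at the time of induction. The age and number of the animals are not given in the sources used here, and neither is whether the 2 libraries of a group came from separate animals or cultures, so the p-values measure the spread between these libraries, which may be technical. No Lin28a-RIP of control cells and no IgG pull-down were analysed here, so a peak or a ratio below is relative to the input RNA alone. Counts of all Lin28a-RIP peaks with the same gene identifier were summed, and 3050 of the 3493 genes with a peak had a matched input value and were tested.

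Lin28a is an RNA-binding protein with a cold shock domain and CCHC zinc knuckles. It is best known for binding the loop of the precursors of let-7 microRNAs, often at a GGAG motif, which blocks their processing and leads to their uridylation by the Tut4 and Tut7 enzymes. It also binds many mRNAs directly and can affect their translation and stability. In RIP-seq, RNA is recovered with an antibody against the protein and sequenced, and peaks mark stretches where reads accumulate. Because an abundant RNA yields more reads by itself, the recovery of a gene is read here as its Lin28a-RIP level divided by its input level.

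No let-7 precursor lay under a Lin28a-RIP peak. The positions of 1005 mouse microRNA hairpins (RefSeq, GRCm38.p6) were compared with the 21616 peaks, whose coordinates are on mm10, the same build. A peak overlapped 42 hairpins, and none of them was among the 12 hairpins of the let-7 family, Mir98 included. The let-7 family hairpins below are shown because they are the best-known Lin28a ligands, and they can be set beside some that did lie under strong peaks. All run 5′ to 3′ and GGAG is in capitals.
Mirlet7g (chr9:106178840-106178927, plus strand, no peak): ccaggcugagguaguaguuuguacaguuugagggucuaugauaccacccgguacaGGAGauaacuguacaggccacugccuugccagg
Mirlet7a-1 (chr13:48538179-48538272, minus strand, no peak): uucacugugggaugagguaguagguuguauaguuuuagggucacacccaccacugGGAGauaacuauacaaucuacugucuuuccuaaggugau
Mirlet7f-2 (chrX:151912346-151912428, plus strand, no peak): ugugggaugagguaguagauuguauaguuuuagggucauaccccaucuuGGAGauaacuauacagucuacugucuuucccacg
Mir98 (chrX:151913214-151913321, plus strand, no peak): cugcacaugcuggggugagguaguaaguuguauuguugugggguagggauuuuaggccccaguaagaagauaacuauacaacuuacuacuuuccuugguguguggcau
Mir6997 (chr2:29995950-29996020, plus strand, inside Sptan1, under a peak): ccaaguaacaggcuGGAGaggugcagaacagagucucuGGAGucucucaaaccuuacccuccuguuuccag
Mir7018 (chr4:137538286-137538370, plus strand, inside Hspg2, under a peak): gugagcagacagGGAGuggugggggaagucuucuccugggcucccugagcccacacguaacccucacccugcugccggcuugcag
GGAG was found on the RNA strand in 9 of the 12 let-7 family hairpins and in 44.5% of all hairpins searched, and in 20 of the 42 hairpins under a peak (47.6%). All 42 of the latter lie inside a protein-coding gene, so reads of the host transcript and of the hairpin cannot be told apart. The peak over Mir6997 held 9293 and 8239 reads, and that over Mir7018 held 8257 and 7413. Both of these hairpins hold GGAG, but those under stronger peaks were divided. Mir7090, under the peak with the most reads (17166 and 16162), and Mir3064 (9890 and 9020) lack it, and Mir5113 (11833 and 11244) holds it. The table does name Mir98 for 3 peaks, but they start downstream of its hairpin, at chrX:151913977-151914392, chrX:151915425-151916132 and chrX:151916687-151917614, inside Huwe1, a ubiquitin ligase gene that was itself over-recovered (log2 Lin28a-RIP to input ratio 5.34 ± 0.033, on the scale explained below). The mature 5p strands of the family share the seed at bases 2 to 8, in capitals here.
let-7a-5p: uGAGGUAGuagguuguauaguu
let-7g-5p: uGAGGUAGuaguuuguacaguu
miR-98-5p: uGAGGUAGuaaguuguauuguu
How small RNAs were handled in the libraries is not given in the sources used here, and a hairpin without a listed peak has no value in the table.

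The Lin28a-RIP counts summed to 36610494 and 33908110 and the input values to 5057455 and 4842915, and levels are given as CPM, counts scaled to a common total, not divided by transcript length. The tested genes held 93.2% and 93.1% of the Lin28a-RIP counts but only 19.5% and 19.6% of the input. The Lin28a-RIP libraries differed by a median of 0.053 per gene on the log2 scale and the input libraries by 0.067. The myogenic identity of the cells was seen in the input, where Myod1 stood at 4752 and 4775 CPM, Myog at 2785 and 2837 and Pax7 at 194 and 190.0, whereas Pecam1 (endothelial) and Ptprc (leukocyte) were under 1 CPM and the fibroblastic Pdgfra under 0.1 CPM in both libraries. Summed over the markers of at least 1 CPM, 18 of 19 myogenic markers reached 15845 and 16081 CPM, 4 of 13 fibro-adipogenic markers 81.4 and 79.9, 1 of 13 macrophage markers 2.18 and 3.41, and none of 12 endothelial markers passed. Of 12 pericyte and smooth muscle markers, 7 summed to 9013 and 9026 CPM, most of it Acta2, and the part of such cells in the ratios was not tested.

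Of the 3050 genes, 1170 (38.4%) were over-recovered and 1039 (34.1%) under-recovered by Lin28a-RIP for their RNA level, by an adjusted p under 0.05 in edgeR's quasi-likelihood test and a ratio of at least 2-fold. In 97.2% of the tested genes the 2 Lin28a-RIP values did not overlap the 2 input values, so these shares are the background for every count below. The log2 ratio ran from -3.25 at the 10th percentile to 3.58 at the 90th, with a median of 0.22. The scale is relative: TMM factors place 0 near the bulk of genes that have a peak. With totals of the tables in place of TMM the median was 1.81, a shift of 1.59, and 1844 genes were over- and 468 under-recovered, and Rad21, Gclc, Itga7, Megf10 and Myh3, given below as under-recovered, lay above 0. Under-recovered thus means less than the typical gene with a peak, and a gene whose log2 ratio lay 1.59 under 0 had about the same CPM in both assays.

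**Figure D1:**
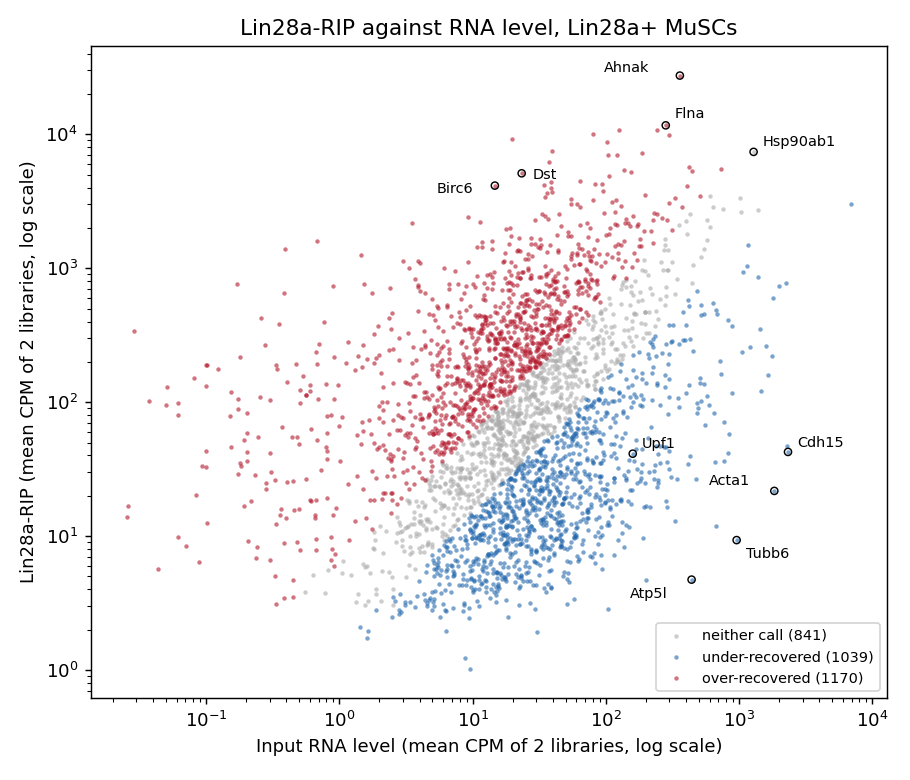
Mean Lin28a-RIP level against mean input level of the 3050 genes tested, both in CPM on log axes, 1 point per gene, coloured by call. Genes of like input level differed widely in Lin28a-RIP level; Ahnak was the highest point, and Tubb6, Atp5l, Acta1 and Cdh15 lay far below genes of the same input level.

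Among called genes with an input of at least 10 CPM, the 10 highest log2 ratios ran from 5.35 to 7.26. Birc6, a giant ubiquitin-conjugating enzyme that inhibits apoptosis, was at 4091 and 4180.2 CPM in Lin28a-RIP and 14.5 and 14.9 CPM in the input. Its log2 ratio was 6.56 ± 0.038 (2 against 2 libraries, edgeR adjusted p = 2.31e-11). Each ± in the text is the absolute log2 ratio divided by the square root of the test's F value. It is not a directly estimated standard error and can be too small, above all where input reads are few. Dst, the spectraplakin dystonin that links cytoskeletal filaments, was at 5109.7 and 5109.8 CPM against 23.3 and 23.4 CPM (log2 ratio 6.19 ± 0.032). For both, the Lin28a-RIP libraries lay far above the input libraries and the 2 libraries of an assay nearly coincided. Macf1, the other large spectraplakin, which crosslinks actin and microtubules, was at 7416 and 7586 CPM against 38.9 and 39.4 CPM (log2 ratio 5.99 ± 0.031). Mdn1, an AAA ATPase of ribosome maturation and among the largest proteins of the cell, was at 2196 and 2226 against 11.3 and 11.3 CPM (log2 ratio 6.02 ± 0.041). Their peaks were many: 67 in Birc6, 79 in Dst, 81 in Macf1 and 86 in Mdn1 by the table's gene names.

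Outside the cytoskeleton, the matrix proteoglycan versican (Vcan) was at 6207 and 6308 CPM in Lin28a-RIP against 39.6 and 35.4 CPM in the input, a log2 ratio of 5.79 ± 0.039. Smchd1, a chromatin protein of X inactivation and of the D4Z4 repeat that is mutated in a muscular dystrophy, was at 1522 and 1593 CPM against 12.4 and 11.0 CPM (log2 ratio 5.47 ± 0.062). The input libraries differed more for Smchd1 than for Dst, yet by little beside the distance to Lin28a-RIP. The kinetochore protein Cenpf was at 1437 and 1418 against 9.80 and 11.9 CPM (log2 ratio 5.45 ± 0.054), the cytolinker plectin (Plec) at 10186 and 9809 against 79.9 and 81.0 CPM (5.37 ± 0.035) and the endosomal Dnajc13 at 1433 and 1463 against 12.3 and 11.4 CPM (5.35 ± 0.047). These 9 genes and Zim1 were the 10 highest ratios among called genes with an input of at least 10 CPM.

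Zim1, the highest of them by the table's gene names, stands apart. It was at 9096 and 9210.2 CPM in Lin28a-RIP and 18.9 and 20.8 CPM in the input (log2 ratio 7.26 ± 0.035). Of its 2 peaks, however, 1 held nearly all the reads, with 332564 and 311828, and that peak, chr7:6703924-6712120, lies outside Zim1 and inside Peg3, the neighbouring imprinted zinc finger gene. With peaks assigned to the gene body they lie in, Zim1 fell to a log2 ratio of -2.22, and Peg3 rose from 0.54 to 3.13 ± 0.023 at 10891 and 10974 CPM. The same held for other peaks: 3007 of the 21616 peaks (13.9%) lie outside the gene that names them, and 249 of the over-recovered genes (21.3%) and 144 of the under-recovered genes (13.9%) had no peak inside their own body. By position, Ttn, which codes for the giant sarcomeric spring titin, took 15 peaks named Plekha3 and rose from 5.26 to 6.06, and Flnc, the muscle filamin, took 9 peaks named Atp6v1f and passed the 2-fold limit at 1.06 in place of 0.13. Notch2 took 28 peaks named Adam30, and Hspg2, the basement membrane proteoglycan perlecan, took 19 named Mir7018; by position the log2 ratio of Notch2 turned from -1.88 to 1.75 and that of Hspg2 went from 1.33 to 2.13.

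The 10 lowest log2 ratios at the same input limit ran from -8.26 to -5.98. Tubb6, a beta-tubulin, was at 10.1 and 8.55 CPM in Lin28a-RIP and 948 and 969.6 CPM in the input (log2 ratio -8.26 ± 0.051; edgeR adjusted p = 2.31e-11). Atp5l, a subunit of the mitochondrial ATP synthase, was at 5.08 and 4.39 against 444 and 436 CPM (log2 ratio -8.12 ± 0.049). Acta1, the actin of skeletal muscle fibres, was at 23.1 and 20.5 against 1847 and 1831 CPM (log2 ratio -7.98 ± 0.048). For all of them both input libraries were far above both Lin28a-RIP libraries. The single peak of each of these 3 genes lies outside the gene, as do those of Rps27l (log2 ratio -7.002 ± 0.055) and of Ppib, a cyclophilin of the endoplasmic reticulum (-5.98 ± 0.047), so inside their own bodies these 5 genes had no peak.

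The other 5 of the 10 lowest ratios rest on a peak inside the gene. Cdh15, the M-cadherin of satellite cells, was at 45.4 and 39.7 CPM in Lin28a-RIP against 2286 and 2373 CPM in the input (log2 ratio -7.36 ± 0.059). Jph2, the junctophilin that holds the T-tubule to the sarcoplasmic reticulum, was at 13.1 and 10.7 against 681 and 670.3 CPM (-7.41 ± 0.061). Tubb2b, another beta-tubulin, was at 41.5 and 52.5 against 2306 and 2286 CPM (-7.20 ± 0.091). The Lin28a-RIP libraries of Tubb2b were further apart than those of Cdh15 or Jph2, yet both stayed far below the input. Inhbb, a subunit of activins and inhibins, was at 2.79 and 2.89 against 110.1 and 98.7 CPM (-6.79 ± 0.091), and Fkbp9, a prolyl isomerase of the endoplasmic reticulum, at 12.5 and 13.4 against 332 and 333 CPM (-6.27 ± 0.038).

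**Figure D2:**
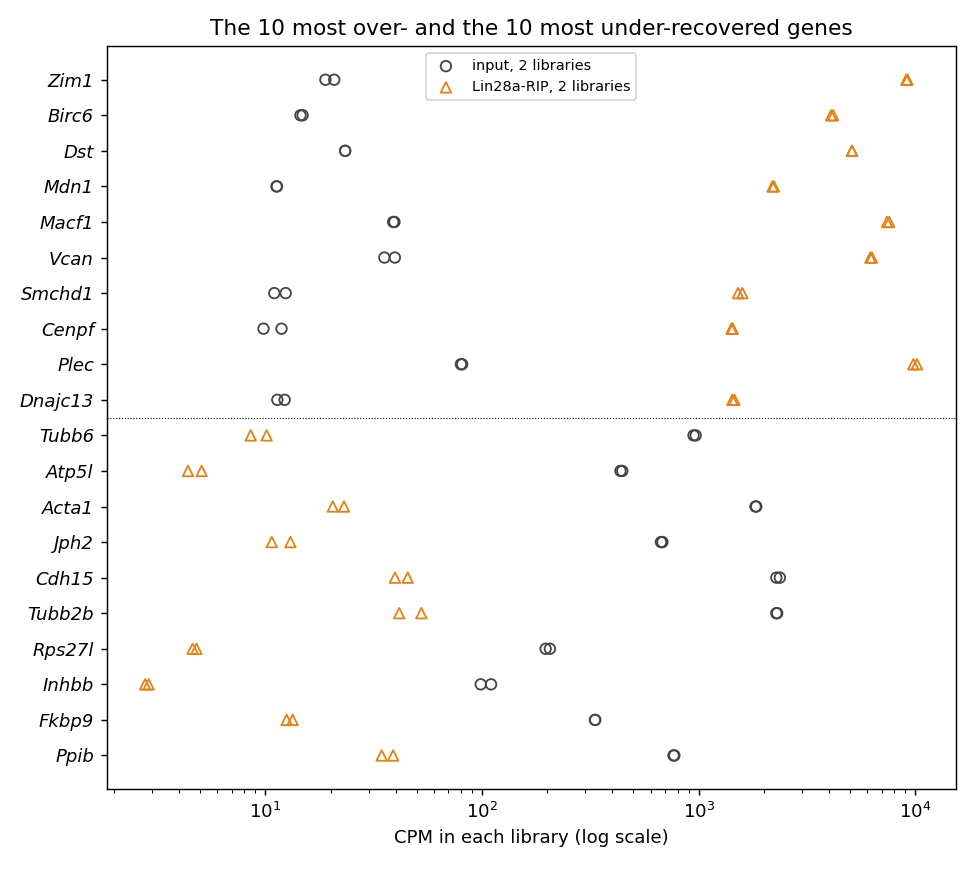
CPM in each library (log axis) for the 10 genes of highest and the 10 of lowest log2 ratio with an input of at least 10 CPM; circles are the 2 input libraries and triangles the 2 Lin28a-RIP libraries. No triangle of a gene reaches its circles: the triangles of the upper 10 genes lie above 1000 CPM and those of the lower 10 below 100 CPM.

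The 10 genes with the most Lin28a-RIP counts held 11.3% of them, less than the 17.5% of the input held by its own first 10, and the first 100 held 39.3%. Ahnak, a giant scaffold protein, was first with 27248 and 27567 CPM against 363 and 356 CPM in the input (log2 ratio 4.67 ± 0.022). Of this, 95.9% was 1 peak at chr19:9001524-9019196 with 956584 and 895755 reads. Flna, the filamin that crosslinks cortical actin, followed with 11816 and 11486 CPM against 281 and 282 CPM (3.78 ± 0.026). Lrp1, a large endocytic receptor, had 10880.1 and 10808 CPM against 126 and 127 CPM (4.83 ± 0.024), and Myh9, the heavy chain of non-muscle myosin IIA, 10789 and 10585 against 243 and 241 CPM (3.88 ± 0.025). Next to them stood the ubiquitin ligase Nedd4 (log2 ratio 3.47 ± 0.024) and fibronectin, Fn1 (4.84 ± 0.026). Hsp90ab1, the constitutive cytosolic Hsp90, was the 1 gene among these 10 that was not over-recovered: its 7385 and 7387 CPM stood against 1285 and 1286 CPM in the input, a log2 ratio of 0.94 ± 0.018 that stayed under 2-fold with TMM and was 2.52 with table totals.

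The ratio rose with the number of peaks that were summed. The median log2 ratio was -2.42 in 798 genes with 1 peak, 0.69 in 887 genes with 4 to 9 peaks and 3.59 in 190 genes with 20 or more. Over-recovered genes had a median of 9 peaks and a gene body of 57.8 kb, against 1 peak and 30.8 kb for under-recovered genes. With only the strongest peak of each gene the median ran from -1.08 to 1.65 over the same classes, and per kb of peak width from -0.10 to 0.68. Per kb of peak width, 755 genes were over- and 588 under-recovered, and Hspg2, Ttn, Actn1 and Txnrd1, over-recovered by their sums, lay below 0 at -2.12, -0.42, -0.42 and -0.30. Flnc, under 2-fold by its sum, also lay below 0 there. On this scale only the Lin28a-RIP counts were divided by width. The input stayed per gene and was not divided by transcript length, which by itself lowers the ratio of long transcripts. The scale is thus not a full correction for length. A longer covered stretch adds reads to the Lin28a-RIP sum, so length and affinity cannot be told apart in a summed ratio.

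The input values move with the ratio too. In 1524 of the tested genes both input values were whole numbers after multiplication by a whole number up to 20, within 0.001. For 1526 no such divisor was found. Whether the values are means over a gene's transcripts was not tested. The median log2 ratio was -1.63 in the 163 genes with whole-number values as deposited and 1.44 in the 133 genes with a divisor of 13 to 20. With the input multiplied by this divisor, 530 of the 1524 genes were over- and 532 under-recovered, beside 589 and 534 of the same genes as deposited. Among the genes with whole-number input alone the median still ran from -3.05 (53 genes with 1 peak) to 1.18 (10 genes with 10 to 19 peaks). For Vcan, Trip12 and Syne2 the log2 ratio was 4.72, 2.63 and 4.52 with the multiplied input, in place of 5.79, 4.71 and 6.50.

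**Figure D3:**
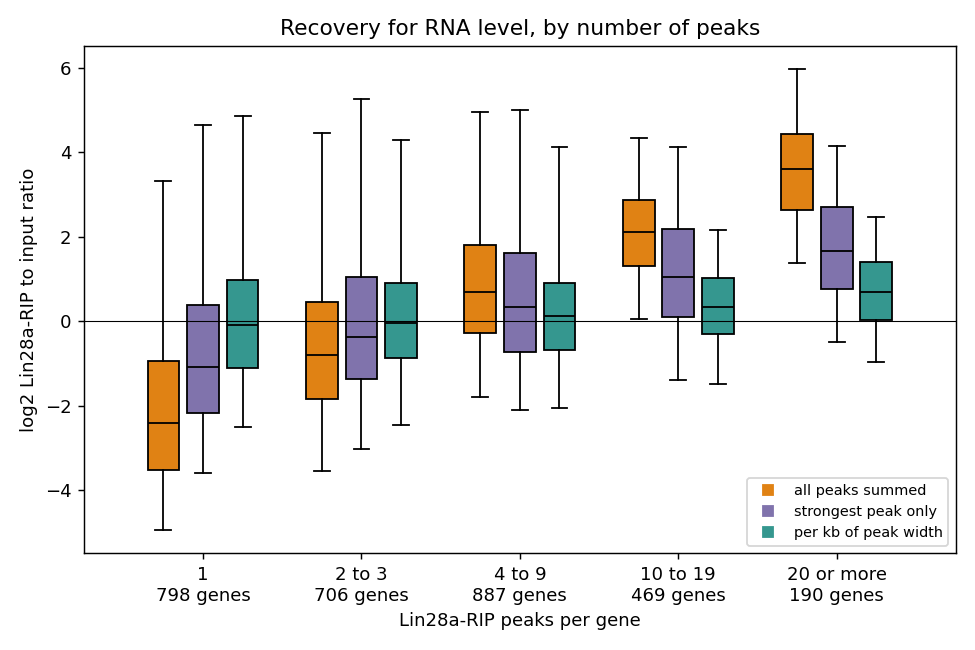
Log2 Lin28a-RIP to input ratio by number of Lin28a-RIP peaks per gene, for all peaks summed, the strongest peak only and counts per kb of peak width; boxes span the middle 50% of genes with the median as a line, and whiskers run from the 5th to the 95th percentile. The medians rise from left to right on all 3 scales, most for summed peaks and least per kb.

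Gene lists written by hand showed which functions the ratios fall into. Each list holds members with and without a peak, and only those with a peak have a ratio. Because the sum grows with peak number, the median minus that of all genes is also given per kb of peak width, or on other scales, for several lists. With the input multiplied by its divisor, members without a divisor drop out. Such a median can thus differ from the summed one by its genes alone. Among 26 giant cytoskeletal genes of at least 1 CPM in the input, 24 had a peak, and 20 were over- and 1 under-recovered, with a median log2 ratio of 3.76 beside 0.22 for all genes. This lead of 3.53 was 1.82 with the strongest peak only and 0.23 per kb of peak width. Syne2, the large nesprin of the nuclear envelope, had the highest at 1091 and 1107 CPM against 3.79 and 4.26 CPM (log2 ratio 6.50 ± 0.058). Its small relative Syne3 was the under-recovered member (-3.76 ± 0.093).

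Genes of chromosome structure and division followed. Of 24 cohesin and structural maintenance of chromosomes genes, 19 had a peak and 15 were over- and 1 under-recovered (median 2.68). The exception was Rad21, the kleisin subunit of cohesin, at 519.9 and 518 CPM in Lin28a-RIP against 413 and 424 CPM (log2 ratio -1.27 ± 0.022). Of 57 mitosis and cell cycle genes 34 had a peak, and 24 were over- and 4 under-recovered (median 2.43). The kinetochore motor Cenpe was near the top at 1109 and 1127 CPM against 9.25 and 9.25 CPM (5.32 ± 0.048), whereas Cdkn1a, Cdk4 and Ccnb2 had no peak at input levels of 530.0 and 541, 288 and 295 and 271 and 279 CPM. Among 69 chromatin modifiers and remodellers 55 had a peak, with 34 over- and 6 under-recovered (median 1.90), led by the remodeller Atrx with 1110.2 and 1148 CPM against 3.02 and 2.99 CPM (7.003 ± 0.069). Per kb of peak width the lead over all genes was 0.89 in place of 2.45 for the cohesin list, 0.27 in place of 2.20 for mitosis and 0.19 in place of 1.67 for chromatin modifiers.

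Collagens were mostly over-recovered by summed counts when they had a peak. Of 14 collagens 9 had a peak, of which 8 were over- and 1 under-recovered (median 2.45). Col4a1, the basement membrane collagen, was at 7313 and 7156 CPM against 186 and 189 CPM (3.68 ± 0.026), and Col12a1, a fibril-associated collagen, at 1417 and 1440.0 against 32.1 and 29.5 CPM (3.95 ± 0.04). Col6a1 was the under-recovered collagen, with a single peak (-3.47 ± 0.22). The collagens' lead came with their many peaks, a median of 37 per gene, and per kb of peak width their median minus that of all genes was -0.09. Other matrix and secreted proteins were mixed, with 12 over- and 6 under-recovered of 24 tested (median 0.93), and relative to all genes their median turned from 0.70 to -0.57 per kb of peak width. It was 1.62 with peaks assigned by position and 1.63 among members with the input multiplied by its divisor. Timp2, an inhibitor of metalloproteinases, had no peak at 1519.6 and 1488 CPM.

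Most genes of the ribosome and of mitochondrial respiration had no peak. All 79 cytosolic ribosomal protein genes were in the input at a median of 649.6 CPM, 4 had a peak by the table's names, and all 4 were under-recovered (median -5.52). None of these peaks lies inside its ribosomal gene: the 9 peaks named Rps6, for example, lie beyond it. Of 77 nuclear-encoded respiratory chain subunits 9 had a peak, 7 under- and 1 over-recovered (median -3.34). Relative to all genes this was -3.56, and -2.23 per kb of peak width and -0.15 among the members whose input could be multiplied by a divisor. Members without a divisor, Ndufs1, Atp5l and Cox6c among them, dropped out of the last median. The over-recovered one was Ndufs1, the largest subunit of complex I, with 16 peaks and 806 and 796 CPM against 40.0 and 42.8 CPM (2.69 ± 0.04), while Uqcrfs1 and Cox8a had none at 976 and 950.5 and 899 and 901 CPM. Antioxidant genes were similar, with 5 of 39 carrying a peak and 4 of these under-recovered (median -2.73; relative to all genes -2.95, and -1.43 per kb of peak width and -1.70 with peaks assigned by position), among them Gclc, which starts glutathione synthesis (-1.52 ± 0.07), whereas Txnrd1, cytosolic thioredoxin reductase, was over-recovered at 1156 and 1136 against 173 and 173 CPM (1.15 ± 0.027).

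For the TCA cycle, 14 of 25 genes had a peak, none was over-recovered and 7 were under-recovered (median -1.47). This was -1.70 relative to all genes, -1.04 per kb of peak width and -0.71 with peaks assigned by position. Idh3a and Idh2, isocitrate dehydrogenases, were lowest, at 17.2 and 17.7 CPM against 153 and 156 CPM (-4.73 ± 0.045) and at 27.7 and 25.5 against 229 and 229.9 CPM (-4.69 ± 0.048). Sdha, the flavoprotein of complex II, was highest of the list and stayed under 2-fold (0.91 ± 0.028), but with table totals in place of TMM its log2 ratio was 2.49 and passed. Of 40 actin, tubulin and short cytoskeletal genes 12 had a peak, with 7 under- and 2 over-recovered (median -1.25), both of these alpha-actinins: Actn4 (2.05 ± 0.036) and Actn1 (1.72 ± 0.027). Relative to all genes the median of this list was -1.48, and 0.87 among members with the input multiplied by its divisor. These medians cover different genes, as Tubb6, Acta1, Actn1 and Actn4 had no divisor and dropped out. Of 16 glycolysis genes 6 had a peak, and of 7 tested with that under 1 CPM of input 2 were over- and 2 under-recovered (median 0.31). The list's median relative to all genes was 0.087, and it was -0.43 with the strongest peak only, -0.38 per kb of peak width and 1.43 among members with the input multiplied by its divisor. Gapdh and Pgk1, enzymes of its lower part, had no peak at 2165 and 2204 and 1661 and 1698 CPM.

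**Figure D4:**
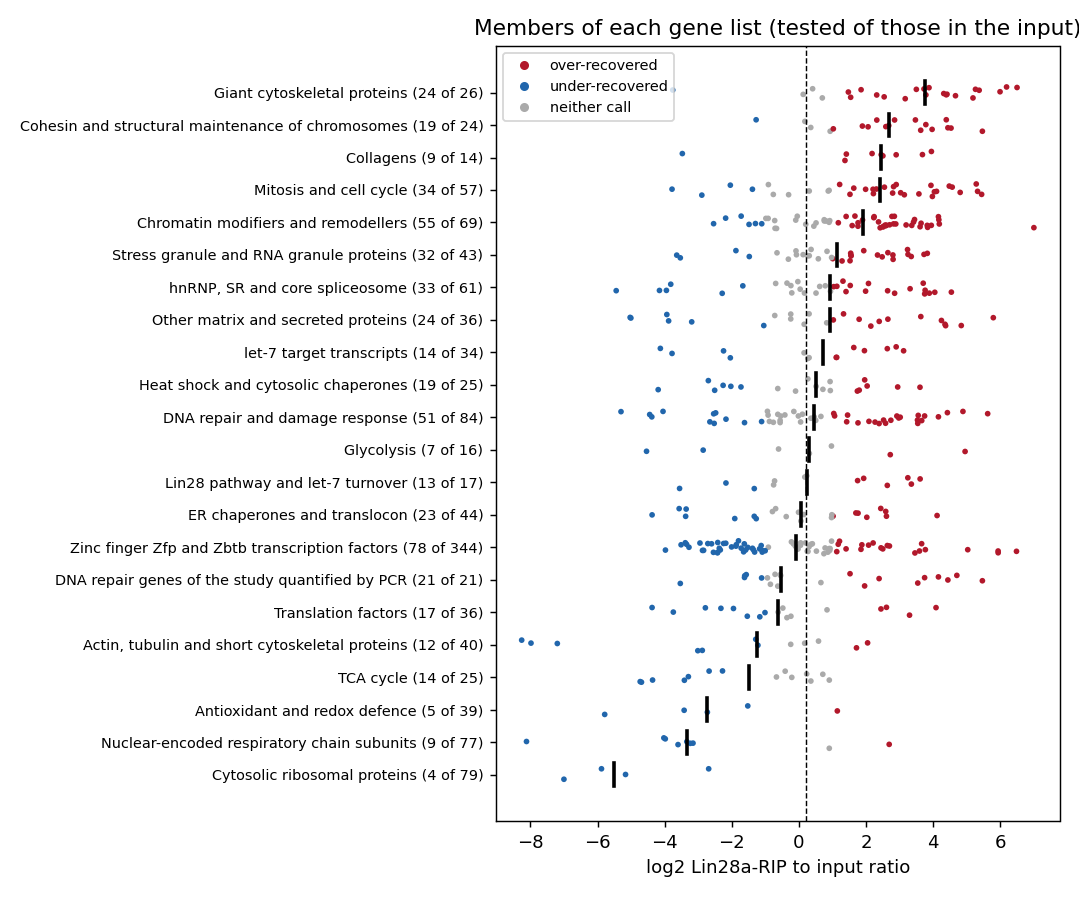
Log2 Lin28a-RIP to input ratio of each tested member of the 22 lists with at least 3 tested members, cell type markers apart, coloured by call; the black bar is the list's median, the dashed line the median of all 3050 genes, and the brackets give the tested members and those with at least 1 CPM of input. Giant cytoskeletal and chromosome genes lie mostly to the right of the dashed line, and respiratory chain and ribosomal genes mostly to the left.

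RNA-binding and protein folding genes were divided within each list. Of 61 hnRNP, SR and core spliceosome genes 33 had a peak, with 16 over- and 6 under-recovered (median 0.94). Hnrnpu, a scaffold-attachment protein that binds RNA, was at 4505 and 4407 CPM against 63.4 and 64.0 CPM (log2 ratio 4.54 ± 0.032), and Hnrnpab at 56.4 and 60.0 against 846 and 842 CPM (-5.44 ± 0.032), so that members of a single family lay at both ends. The median of this list relative to all genes was 0.72, but -0.074 per kb of peak width and -0.092 among members with the input multiplied by its divisor. Among 36 translation factors 17 had a peak, 4 over- and 8 under-recovered (median -0.62): the scaffold Eif4g1 was at 4254 and 4214 against 82.7 and 83.5 CPM (4.09 ± 0.027) and Eif3l at 42.3 and 43.7 against 299 and 295 CPM (-4.38 ± 0.033). Eef1a1, the main elongation factor, had no peak at 4642 and 4695 CPM. Heat shock genes had 6 over- and 6 under-recovered of 19 tested (median 0.51), from Hsph1, an Hsp110 (3.61 ± 0.041), to the co-chaperone Stip1 (-4.19 ± 0.029; -2.41 with peaks assigned by position). Their median of 0.29 relative to all genes turned to -0.92 with the strongest peak only and to -0.60 per kb of peak width. Of 44 genes for chaperones and the translocon of the endoplasmic reticulum 23 had a peak, 8 over- and 7 under-recovered (median 0.06; relative to all genes -0.17, and -0.36 per kb of peak width), with Uggt1, which senses unfolded glycoproteins, highest (4.12 ± 0.045) and calreticulin, Calr, among the lowest (-3.57 ± 0.024).

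Among stress granule and RNA granule genes 32 of 43 had a peak, and 17 were over- and 4 under-recovered, with a median of 1.15. Relative to all genes this was 0.92, and 0.37 per kb of peak width and 0.43 among members with the input multiplied by its divisor. Xrn1, the 5′ to 3′ exonuclease of mRNA decay, was highest at 451 and 444 CPM against 10.5 and 10.6 CPM (3.83 ± 0.058). G3bp1, the nucleator of stress granules, had no peak by name at 585 and 577 CPM, although 5 peaks named for other genes lie inside its body, and Tia1 had none by name at 3.47 and 3.37 CPM with 2 inside its body. Among Zfp and Zbtb zinc finger genes 77 of 344 (22.4%) had a peak, close to the 25.1% of all input genes, and 20 were over- and 35 under-recovered of 78 tested (median -0.08). The zinc finger median relative to all genes was -0.31, and 0.13 with the strongest peak only and 0.071 per kb of peak width. It was -0.22 with peaks assigned by position and -0.62 among members with the input multiplied by its divisor. Replication-dependent histone genes, whose mRNAs lack a poly(A) tail, had 1 member with a peak of 54, and that peak lies outside the gene. Of 33 long non-coding RNAs listed, 4 had a peak and none was tested, and for H19 no input value was matched, so its RNA level is not known here.

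The 21 DNA repair genes that the study had chosen for PCR of Lin28a-bound RNA all had a peak, which their choice from these data makes no independent evidence. Of these, 9 were over-recovered, 5 under-recovered and 7 neither, beside 38.4% and 34.1% of all genes, with a median log2 ratio of -0.54. Relative to all genes the median was -0.77, and it turned to 0.69 with the strongest peak only, 0.07 per kb of peak width, 0.10 with peaks assigned by position and 0.91 among members with the input multiplied by its divisor. Smchd1 was highest, followed by Trip12, a ubiquitin ligase, at 2301 and 2309.8 CPM against 28.5 and 30.4 CPM (4.71 ± 0.035), and by Pds5a, a cohesin regulator, at 926 and 957 against 14.7 and 14.2 CPM (4.44 ± 0.052). Fancm, the helicase of the Fanconi anaemia pathway, was over-recovered from a low input, 41.2 and 38.3 CPM against 2.26 and 2.82 CPM (2.39 ± 0.16; edgeR adjusted p = 3.34e-06). Usp1, the deubiquitinase of Fancd2 and Pcna, was not called, with 99.5 and 110.0 CPM against 49.3 and 52.3 CPM (-0.54 ± 0.077), and with table totals in place of TMM its ratio was 1.04 and passed 2-fold. Fbxw7, a ubiquitin ligase substrate receptor, had 1 peak and 4.86 and 5.84 CPM against 5.37 and 5.47 CPM (log2 ratio -1.61 ± 0.19, but 0.84 per kb of peak width), and Upf1, the helicase of nonsense-mediated decay, had 41.7 and 40.8 against 167 and 151 CPM (-3.53 ± 0.057; -0.99 with peaks assigned by position). Across the longer list of 84 repair and damage response genes 50 had a peak, and of 51 tested with those under 1 CPM of input 23 were over- and 11 under-recovered (median 0.46; relative to all genes 0.23, and 0.65 with peaks assigned by position and 1.24 with the input multiplied by its divisor), from Brca2 at 135 and 135 against 0.851 and 1.11 CPM (5.63 ± 0.13) to Rpa1 at 9.59 and 9.29 against 123 and 125 CPM (-5.30 ± 0.053).

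Transcripts tied to let-7 did not stand on 1 side. Of 34 let-7 target transcripts in the input 14 had a peak, with 7 over- and 4 under-recovered (median 0.71). Their median relative to all genes was 0.48, but -0.09 with the strongest peak only, -0.34 per kb of peak width and 1.24 with peaks assigned by position. Igf1r, the IGF1 receptor, was at 643 and 644 CPM against 24.8 and 24.4 CPM (3.12 ± 0.041), and Peg10, a retrotransposon-derived imprinted gene, at 45.5 and 47.7 against 266 and 277 CPM (-4.13 ± 0.037). Of 17 genes of the Lin28 pathway and of let-7 turnover 13 had a peak, 6 over- and 3 under-recovered (median 0.23). Their median minus that of all genes was 0.0085, and it was -0.15 per kb of peak width, -0.85 among members with the input multiplied by its divisor and 1.71 with peaks assigned by position. Tnrc6a, which silences microRNA targets, was at 437 and 446 against 11.9 and 12.3 CPM (3.61 ± 0.056), the uridylase Tut4 at 112 and 111 against 3.85 and 3.55 CPM (3.35 ± 0.10), and Ago2, the slicing Argonaute, at 197 and 191 against 289.6 and 293 CPM (-2.17 ± 0.029). Igf2bp3, the RNA-binding partner in the study, had 7 peaks and 126 and 127 CPM against 35.8 and 34.3 CPM, a log2 ratio of 0.27 ± 0.053, near the median of all genes, and of 1.85, past 2-fold, with table totals in place of TMM, where that median was 1.81. Twist2, a bHLH factor, had no peak at 1.38 and 0.929 CPM.

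By the table's gene names, myogenic genes with a peak were mostly under-recovered. Of 18 measured 6 had one (33.3%, beside 25.1% of all input genes), and 5 of these were under-recovered (median -1.44). Relative to all genes the median was -1.67, and -0.20 among members with the input multiplied by its divisor. It was -2.46 with the strongest peak only, -2.29 with peaks assigned by position and -2.10 per kb of peak width. Pax7, the transcription factor of satellite cells, was at 16.4 and 16.3 CPM in Lin28a-RIP against 194 and 190.0 CPM in the input (-5.14 ± 0.043), and Itga7, the laminin receptor of muscle, at 216 and 213 against 211 and 212 CPM (-1.56 ± 0.028). Megf10, a satellite cell receptor, was under-recovered by name (-1.32 ± 0.04) and over-recovered with peaks assigned by position (1.22). Myh3, the embryonic myosin heavy chain, likewise went from -1.24 ± 0.029 by name to 0.48 by position, where 7 peaks named Mir6923 lie inside it. The exception was Met, the receptor of hepatocyte growth factor, with 17 peaks and 949 and 978 CPM against 26.6 and 25.7 CPM (3.62 ± 0.045). Myod1, Myog and the muscle acetylcholine receptor subunit Chrna1 had no peak, at 4752 and 4775, 2785 and 2837 and 3137 and 3196 CPM of input.

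Abundance did not by itself bring a peak. Of 11615 input genes of at least 1 CPM, 2921 (25.1%) had a Lin28a-RIP peak. With these genes split by input level into 10 classes of equal size, the share of the lowest class was 6.97% (Wilson 95% interval 5.64 to 8.58%), of the seventh 34.4% (31.7 to 37.2%) and of the highest 26.7% (24.2 to 29.3%). It thus rose up to the seventh class and was lower in the last 3. In the highest class the genes with a peak had a median body of 22.1 kb and those without of 8.50 kb. Across the 3050 tested genes the Lin28a-RIP and input levels went together loosely, with a Spearman rho of 0.33 across genes, which are not independent replicates and share library totals.

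**Figure D5:**
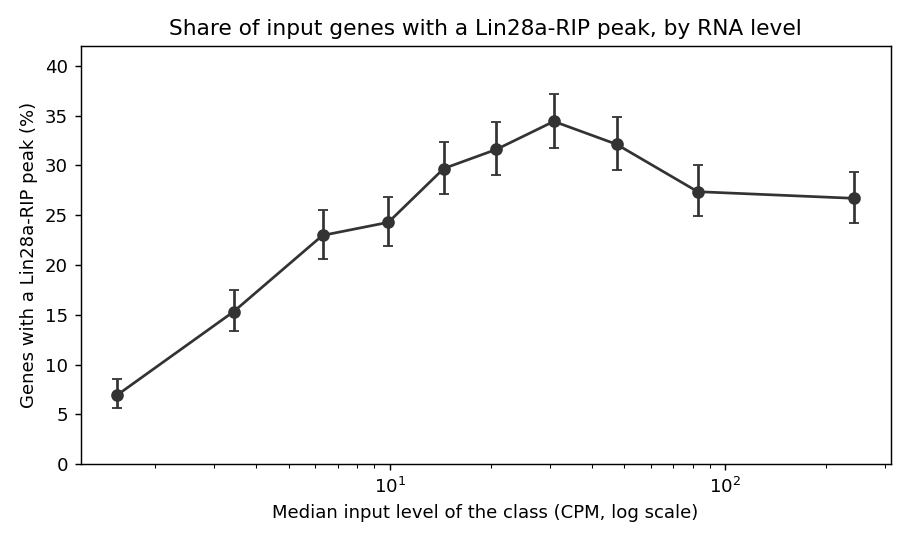
Share of input genes with at least 1 Lin28a-RIP peak in each of 10 classes of input level, placed at the median CPM of the class (log axis); bars are Wilson 95% intervals, which cover counting error only. The share climbs from 6.97% to 34.4% and falls to 26.7% in the most abundant class.

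Of 1456 genes of at least 100 CPM, 1075 (73.8%) had no Lin28a-RIP peak, and they made up 54.1% and 53.7% of the 2 input libraries. They were 1042 protein-coding genes, 32 pseudogenes and 1 long non-coding RNA. Lgals1, the secreted lectin galectin-1, was at 12501 and 12401 CPM, the ribosomal stalk protein Rplp1 at 8342 and 8089 CPM, and the smooth muscle actin Acta2, which growing myoblasts also express, at 7484 and 7495 CPM. The alpha-tubulins Tuba1b and Tuba1a followed at 5920.4 and 5954 and 5796 and 5869 CPM. For each of them the 2 input libraries were close to each other. Reads of such families can be shared with close copies: the processed pseudogenes Gm19220 (29155 and 28343 CPM), Rpl10-ps3 (5746 and 5759 CPM) and Rps12-ps3 (5443 and 5137 CPM) are among the 15 most abundant, as is Lars2 (27049.9 and 25954 CPM), which holds a stretch like mitochondrial ribosomal RNA, and their values are uncertain.

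Mitochondrial mRNAs made up 5 of these 15: mt-Cytb at 10253 and 10310.1 CPM, mt-Nd1 at 10076 and 10239.7, mt-Nd5 at 7503 and 7684, mt-Nd2 at 4808 and 4851 and mt-Nd4 at 4715 and 4834. All 9 mitochondrially encoded mRNAs in the input had no peak. The table holds no peak on the mitochondrial chromosome at all, so missing recovery and a chromosome that was not searched cannot be told apart. A peak named for another gene lay inside the body of 55 of the 1075 genes, Acta2 among them, which leaves 1020 with none. As the lowest count of a listed peak was 19 and 45 reads in the 2 libraries, and the threshold of the peak caller is not given in the sources used here, a gene without a peak was not called at this threshold rather than shown to be unbound.

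Genes with a Lin28a-RIP peak were often listed in the other pull-downs of the study. The listing took no account of counts in Lin28a+ cells, so it does not show a peak in these cells. An Igf2bp3-RIP peak was listed for 93.1% of the over-recovered genes (Wilson 95% interval 91.5 to 94.4%), 61.4% of the under-recovered ones (58.4 to 64.3%) and 16.7% of input genes of at least 1 CPM without a Lin28a-RIP peak. For m6A-RIP the shares were 82.2%, 80.2% and 59.4%. The Igf2bp3-RIP shares of over- and under-recovered genes thus lay further apart than these intervals, and the m6A-RIP shares did not, with intervals of 79.9 to 84.3% and 77.6 to 82.5%. The intervals cover counting error over genes only, and genes are not independent replicates. Of the 10 genes with the highest ratios all had Igf2bp3-RIP peaks, from 3 in Zim1 to 72 in Dst. Of the 10 with the lowest ratios, Ppib had 6, Atp5l and Acta1 had 1 each, and the other 7 had none. Longer genes with more Lin28a-RIP peaks had more room for a peak of either kind, and the part of length in this was not tested.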

How the data were processed

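Lin28a-RIP and input RNA of Lin28a+ MuSCs were sequenced; per the paper's methods the authors removed adapters and aligned reads with HISAT2 2.0.4, and called m6A peaks with MACS2. The deposited Lin28a-RIP file holds whole-number counts per peak, with no IgG or control-cell subtraction stated. The deposited input file holds estimated counts per gene with decimals, not scaled between libraries, in columns named for m6A-RIP libraries; they were rounded before testing. The counting program, the settings of the peak caller and how Lin28a-bound RNA was recovered are not given in the sources used here; the input belongs to RNA enriched as mRNA for m6A-RIP. The methods name a human genome build and the processing notes mm10 too: gene identifiers are murine, and 99.963% of peaks lay on the chromosome of their gene in RefSeq GRCm38.p6, which was used for positions. Gene identifiers matched for 14476 of 14837 input genes.

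Peak counts were summed per gene and 3050 genes in both tables were fitted in edgeR 4.0.16 (R 4.3.3; filterByExpr, TMM factors, quasi-likelihood test, Benjamini-Hochberg adjustment); a call needs an adjusted p under 0.05 and at least 2-fold. Alternatives used DESeq2 1.42.0, limma 3.58.1 on log2(CPM + 1), other scalings, filters and peak sums. On data simulated for this comparison (3050 genes), 99% of 200 changed genes had an adjusted p under 0.05. The 2-fold limit of a call was not applied there, and a smaller share of genes changed than was called in the data. The genes named are the 10 highest and 10 lowest ratios with an input of at least 10 CPM, the 10 with the most Lin28a-RIP counts, the 15 most abundant without a peak, the PCR genes of the study, the extremes of each of 25 lists with their most abundant members without a peak, and 4 genes of the study; 8 others (Peg3, Ttn, Notch2, Hspg2, Huwe1, Itga7, Megf10 and Myh3) were picked with their values known. The genes and lists were chosen with earlier results of these data known.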

Additional observations from a re-analysis of the deposited data

Results flagged for a closer look

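Signal was found for genes that the comparison could not use. A Lin28a-RIP peak was listed for 443 genes with no matched input value, and they held 6.81% and 6.85% of the Lin28a-RIP counts. By annotation 188 were protein-coding genes, 133 microRNAs, 82 long non-coding RNAs and 21 small nucleolar RNAs. The most counts were listed for Mir7018, at 4236 and 4239 CPM over 20 peaks, 19 of which lie in Hspg2. The imprinted long non-coding RNA H19, a host of microRNA miR-675, was at 2689 and 2933 CPM in 1 peak at chr7:142575941-142576197. Adam30 was at 2107 and 2142 CPM, and 28 of its peaks lie in Notch2. Under these names the levels cannot be set against an RNA level; the peaks inside Hspg2 and Notch2 enter the ratios by position given for those genes.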

How the results depend on the processing

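No paired analysis was possible because the numbers in the names of the Lin28a+ input columns are tied there to m6A-RIP, and no label says which input sample each column holds. The calls followed scaling and length most. With total counts in place of TMM, 1844 genes were over- and 468 under-recovered (median log2 ratio 1.81), and per kb of peak width 755 and 588 (0.13). The median was 0.043 with DESeq2, 0.087 with the strongest peak only and 0.22 with limma. Leaving out each library in turn gave 1145 to 1164 over- and 1018 to 1040 under-recovered genes and medians of 0.18 to 0.21; where a Lin28a-RIP library was left out, its lone partner was assumed to vary like the input, although the spread of counts over that of Poisson sampling (chi-square per degree of freedom) was 7.15 for Lin28a-RIP and 0.40 for the input, so calls came too easily there and show no stability, and the fit did not converge for 5 and 6 genes, which then had no p. As choices made after seeing the data, the input multiplied by its inferred divisor gave 530 and 532 calls among 1524 genes, whole-number input alone gave 62 and 56 among 163, with fewer genes tested by construction, and peaks assigned by position gave 1040 and 973 among 2814. Of 23 lists, 13 had a median above that of all genes, and 8 per kb of peak width; 9 lists changed side there, 5 with the strongest peak only, 4 of 22 with the input times its divisor, 1 of 22 by position and 1 of 23 without the second input column. Abundant genes without a peak numbered 2004 at 50 CPM and 516 at 200 CPM. Of 845 values of the 83 named genes under alternatives, 794 kept direction and call, 27 lost the call, 7 gained it and 17 reversed. The total includes the fits without a Lin28a-RIP library, which show no stability, and refits of nearly the same data, such as DESeq2 and limma. It thus overstates how far the calls hold. Those 17 were, with total counts, Gclc (0.062), Itga7 (0.023), Megf10 (0.27), Myh3 (0.35), Rad21 (0.31) and Usp1 (1.04); per kb of peak width, Actn1 (−0.42), Fbxw7 (0.84), Flnc (−2.28), Hspg2 (−2.12), Ttn (−0.42) and Txnrd1 (−0.30); with the strongest peak, Hspg2 (−0.48); and by position, Megf10 (1.22), Myh3 (0.48), Notch2 (1.75) and Zim1 (−2.22). The cause was not tested. With 2 libraries an assay and no control pull-down, a missing peak does not show that a gene is unbound, and the part of depth in this was not tested.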
